A study of Mus musculus with 29 samples.

Results

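The genes described here were 10 markers of cortical interneurons and their neuropeptides: Gad1, Gad2, Sst, Vip, Npy, Tac1, Cck, Pvalb, Reln and Lhx6. They were chosen by name and matched to the Ensembl identifiers of the count tables, where all 10 were found among 48709 identifiers. RNA had been sequenced from the prefrontal cortex (PFC) of male C57BL/6J mice, from co-cultures of cortical neurons with microglia, and from microglia alone. The PFC libraries, 1 per mouse, came from animals aged 3 months that had received lipid nanoparticles in both hemispheres, loaded either with a locked nucleic acid inhibitor of miR-99b-5p (anti-miR-99b, n = 3) or with a negative control oligonucleotide (sc-control, n = 3), and the tissue was taken 5 days later. The co-cultures were from CD1 mice. Microglia of pups at postnatal day 1 were exposed to the inhibitor (7 libraries) or its control (8 libraries) for 48 h and then placed on cortical neurons of embryonic day 17.5, and RNA of all cells together was taken after 48 h more. The neurons themselves were not treated with an oligonucleotide. Microglia cultures of the same strain (4 with anti-miR-99b and 4 with sc-control) served as a background for genes that microglia should lack. The sources do not say whether the libraries of a culture group came from separate cultures, so p-values there measure the spread between libraries, which may be technical.

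Cortical interneurons release GABA, which Gad1 (GAD67) and Gad2 (GAD65) make from glutamate, and they restrain the firing of the surrounding pyramidal cells. Most arise in the ganglionic eminences of the embryo, where the transcription factor Lhx6 directs the lineage that becomes the Pvalb and Sst classes, while Vip cells come from another lineage. Many of them add a neuropeptide, which is packed in dense-core vesicles and acts on G protein-coupled receptors. Pvalb appears after birth, and several of the peptides rise with neuronal activity. Some of these genes are not confined to interneurons. Cck is also made by pyramidal neurons, Tac1 by striatal projection neurons, and Reln, a secreted matrix protein, by the Cajal-Retzius cells of the embryonic cortex.

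By the GENCODE annotation of GRCm38, the enzyme genes Gad1 (chr2:70553072-70602014, + strand) and Gad2 (chr2:22622205-22693874, + strand) share a chromosome with Lhx6 (chr2:36081953-36105408, - strand). The peptide genes lie at chr16:23889573-23890958 (Sst, - strand), chr10:5639218-5647617 (Vip, + strand), chr6:49822710-49829507 (Npy, + strand), chr6:7554879-7565834 (Tac1, + strand) and chr9:121489824-121495694 (Cck, - strand). Pvalb lies at chr15:78191114-78206400 (- strand) and Reln, the longest of the 10, at chr5:21884454-22344702 (- strand). Reads were counted over whole genes, so no value below belongs to a single exon or UTR.

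Sequences bearing on the inhibitor and on a regulatory element known in peptide genes are given next. The mature miR-99b-5p of RefSeq (GRCm38.p6, chr17:17830194-17830215, + strand) is shown with its seed, bases 2 to 8, in capitals.
miR-99b-5p: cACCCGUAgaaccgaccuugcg
A seed match of 7 bases would be TACGGGT, the complement of the seed, or ACGGGTA, the complement of bases 2 to 7 followed by A. Neither was present in the longest annotated 3′ UTR of any of the 10 genes (156 to 3528 bases), whereas 399 of 21020 genes (1.90%) held one. The study reported Zbp1 as a target from a luciferase assay, where mutating the seed region in its 3′ UTR removed the effect, and from raised protein. The longest annotated 3′ UTR of Zbp1 held neither string, so this search would have missed that reported target. These letters were searched on the transcript strand only, and the absence of a match says nothing more than that they are not in these UTRs.

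The cAMP response element (TGACGTCA, with TGACG or its complement CGTCA as its core) is known from the Sst promoter and is a landing site for CREB. In the RefSeq promoters (250 bases before to 50 after the start, both strands searched), the full element was found in Sst alone among the 10 genes and in 1.79% of 32851 promoters. The core, which is contained in the full element, was found in 5 of the 13 promoters of the 10 genes, each of another gene, and in 20.8% of all promoters. The 5 windows of 30 bases around it, 4 of them from peptide genes, are shown as a description. A link between the element and the levels given below was not tested. They are written on the strand of the gene (GRCm38.p6) with the element in capitals.
Sst, chr16:23890874-23890903, - strand: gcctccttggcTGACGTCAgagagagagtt
Vip, chr10:5639127-5639156, + strand: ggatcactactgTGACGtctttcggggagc
Tac1, chr6:7555006-7555035, + strand: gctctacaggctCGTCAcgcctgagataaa
Cck, chr9:121495724-121495753, - strand: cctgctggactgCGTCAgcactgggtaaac
Gad2, chr2:22622282-22622311, + strand: ccatttcccttcCGTCActctctcatctcc
Counted from the transcript start that RefSeq gives, the element shown began 48 bases upstream in Sst, 79 in Vip, 43 in Tac1, 47 in Cck and 33 in Gad2. Tac1 held another core, not shown, that began 197 bases upstream. GENCODE begins the genes Sst, Tac1 and Gad2 farther upstream, so that these 3 windows lie within the gene coordinates given above, whereas those of Vip and Cck lie outside them. Npy, the other peptide gene, and Pvalb, Reln, Lhx6 and Gad1 held no core in this window. A match is a string of letters and not evidence of binding.

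The libraries held between 21324156 and 37901110 counted reads, and all 10 genes passed the filter on low counts in each comparison. Only Pvalb in the co-cultures (7 to 25 reads per library) and Tac1 there (59 to 124 reads) rested on few reads. The first principal component set 1 PFC library, anti-miR-99b replicate 1, and 1 co-culture library, anti-miR-99b replicate 7, apart from the others, and the log2FC of treatment within each system are given with them and, by gene or as a range, without them. In CPM, the reads of a gene scaled to a common library size with TMM factors, the microglia markers summed to at least 18890 CPM in the microglia cultures and to at most 283 CPM in the co-cultures. Mature miR-99b-5p is not counted in poly(A) libraries, so its inhibition was not checked here. In bulk RNA, fewer cells of a type and less RNA per cell cannot be told apart.

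**Figure D1:**
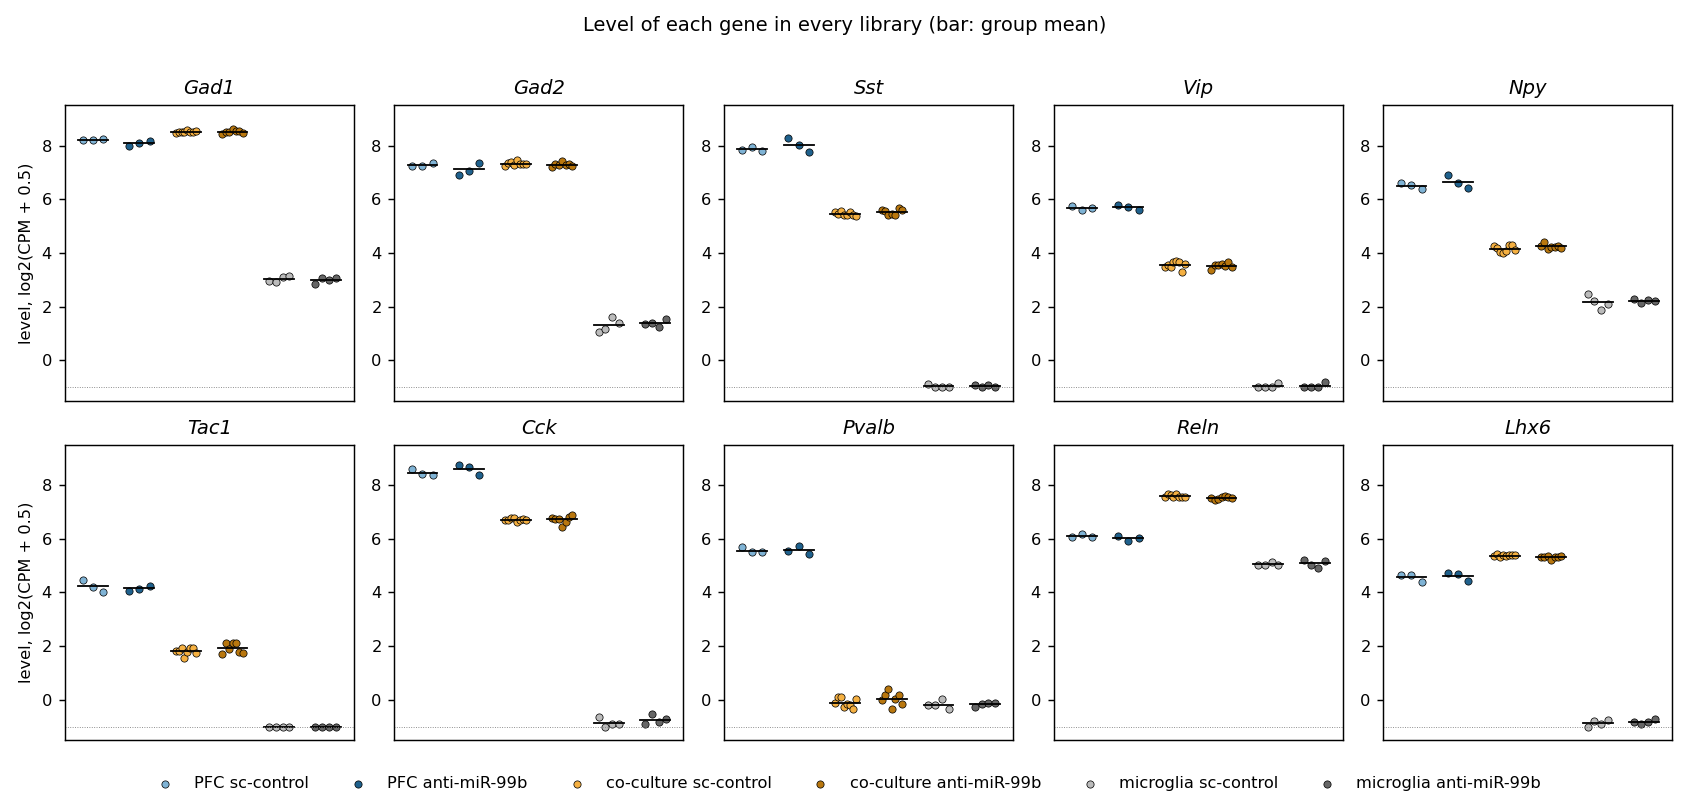
Level of each of the 10 genes in all 29 libraries, as log2 of CPM plus 0.5 (CPM, read counts scaled to library size), with each library a point and each group mean a bar. The dotted line marks no reads. Sst, Vip, Npy, Tac1, Cck and Pvalb sit lower in the co-cultures than in the PFC, Reln and Lhx6 higher, and the anti-miR-99b and sc-control points of each system lie close together.

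The first question was how the 10 genes compared with one another in the control state, that is, in the sc-control libraries. Levels between genes were compared as CPM per kilobase of annotated exon, with all 21 PFC and co-culture libraries scaled together. In the PFC, Sst led with 319 ± 14.4 (SD, n = 3), followed by Cck with 268 ± 21.2 and Npy with 159 ± 13.9. These 3 peptides made up 36.2%, 30.4% and 17.9% of the summed level of the 10 genes. Pvalb followed with 44.4 ± 3.61, Gad1 with 38.6 ± 0.43, Gad2 with 26.1 ± 1.11 and Vip with 14.7 ± 0.785. The lowest were Tac1 with 5.39 ± 0.952, Lhx6 with 4.83 ± 0.524 and Reln with 2.84 ± 0.125. Only Tac1 and Lhx6 overlapped among neighbours in this order.

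In the sc-control co-cultures the order was another one. Cck led with 80.4 ± 2.73 CPM per kilobase (SD, n = 8), ahead of Sst with 60.9 ± 3.05 and Gad1 with 47.98 ± 1.11. Npy with 31.03 ± 2.57 and Gad2 with 27.4 ± 1.34 overlapped, as did Lhx6 with 8.56 ± 0.17 and Reln with 8.10 ± 0.299. Vip (3.32 ± 0.329), Tac1 (0.889 ± 0.0862) and Pvalb (0.423 ± 0.109) closed the order. Gad1 alone took 17.8% of the summed level here, against 4.38% in the PFC. The exon length includes all annotated isoforms and is long for Gad1, Vip, Tac1 and Reln. With the longest coding transcript in its place, Cck came before Sst in the PFC (438 against 319 CPM per kilobase), and Gad1 came before Sst in the co-cultures (109 against 60.9). Gad1 then also came before Pvalb (87.9 against 47.3) and Vip before Gad2 (32.7 against 26.7) in the PFC. In the co-cultures Reln came before Lhx6 (16.4 against 11.8).

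**Figure D2:**
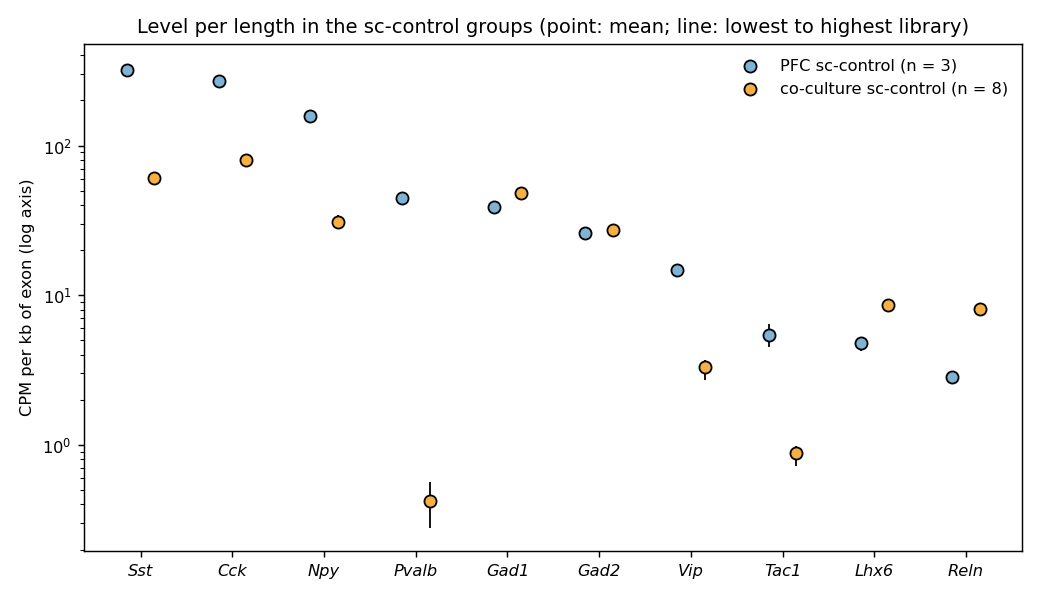
Level of each gene per kilobase of exon in the sc-control libraries of the PFC (n = 3) and of the co-cultures (n = 8) on a log axis, with the mean as a point and the lowest and highest library joined by a line. The peptides and Pvalb fall from the PFC to the co-cultures, Gad2 lies at a similar height and Reln and Lhx6 lie higher in the co-cultures.

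The second question was which genes differed between these sc-control groups, tested with edgeR's quasi-likelihood test. The thresholds were a log2FC beyond 1 with an adjusted p below 0.05. Strain, age, tissue and culture differ together here and cannot be told apart. Of the 10 genes, 6 were lower in the co-culture and 1 was higher past these thresholds, where 20.4% of 17678 genes tested were lower and 14.7% were higher. The median log2FC of the 10 genes was -1.96, against -0.01 over all genes tested. The groups did not overlap for 9 of the 10 genes, and for 76.5% of all genes. The exact permutation test gave p = 0.00606 for each of the 9, the smallest that 8 against 3 libraries allow.

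Pvalb, the calcium-binding protein that names the fast-spiking basket cells, differed most. The 3 PFC mice held 50.7, 44.2 and 44.03 CPM, and the 8 co-culture libraries lay between 0.289 and 0.585 CPM with a median of 0.405. The log2FC was -6.73 (SE 0.09, adjusted p = 4.25e-23), a 106-fold difference. Primary microglia cultures held 0.293 to 0.511 CPM of Pvalb (8 to 15 reads), so the co-culture values overlapped with those of cells that should lack the gene.

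The peptide genes formed a narrower band. Sst, the somatostatin of the dendrite-targeting interneurons, stood at 229, 242 and 221 CPM in the PFC mice and at 41.2 to 46.8 CPM (median 42.8) in the co-cultures, a log2FC of -2.40 (SE 0.04, adjusted p = 4.6e-22). Npy, a peptide of neurogliaform and some Sst cells, stood at 97.3, 91.0 and 81.5 CPM against 15.5 to 19.3 CPM (median 17.2), a log2FC of -2.36 (SE 0.06, adjusted p = 4.99e-19). Vip, the mark of interneurons that inhibit other interneurons, stood at 52.9, 47.7 and 49.7 CPM against 9.18 to 12.4 CPM (median 11.4), a log2FC of -2.17 (SE 0.06, adjusted p = 7.29e-18). All 3 peptides were thus between 4.50-fold (Vip) and 5.30-fold (Sst) lower, with no co-culture library near a PFC library.

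Tac1, the precursor of substance P, stood at 21.8, 18.0 and 15.3 CPM in the PFC and at 2.42 to 3.30 CPM (median 3.02) in the co-cultures, with a log2FC of -2.61 (SE 0.09, adjusted p = 3.6e-16). The 3 PFC mice differed more from one another in Tac1 than in other peptides, and the summed level of 10 striatal projection neuron markers ran in the same order over them, at 430.6, 321.9 and 201.2 CPM when scaled within the PFC. The part of neighbouring striatal tissue in Tac1 was not tested. Cck, the peptide of basket cells and pyramidal neurons, had the smallest difference of the peptides, with 383, 340.0 and 330 CPM against 98.3 to 109 CPM (median 103) and a log2FC of -1.75 (SE 0.04, adjusted p = 7.59e-20).

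Reln was the gene that was higher in the co-culture. The PFC mice held 65.6, 71.1 and 66.1 CPM and the co-cultures 184 to 201 CPM (median 187), a log2FC of 1.498 (SE 0.04, adjusted p = 2.08e-18) or 2.82-fold. Primary microglia cultures, which should lack the gene, held 29.6 to 36.2 CPM of Reln, 17.5% of the co-culture level. Of 7 Cajal-Retzius markers, 5 were tested, of which Calb2 (log2FC 3.60), Nhlh2 and Cxcr4 were higher and Ebf3 and Trp73 were lower past the thresholds, and their summed level was 164 to 179 CPM in the sc-control co-cultures against 16.9 to 18.6 CPM in the sc-control PFC. Calb2, which alone held 161 CPM of that sum, also marks an interneuron class. The part of Cajal-Retzius cells in the Reln level was not tested. Reln shares 246 exonic bases (1.04% of its exons) with the antisense gene Gm10475, whose reads cannot be separated because the strand setting is not given in the sources used here.

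The GABA-synthesizing enzymes differed little between the systems. Gad1 stood at 299, 293 and 296 CPM in the PFC mice and at 353 to 380.1 CPM (median 363) in the co-cultures, a log2FC of 0.30 (SE 0.03, adjusted p = 5.15e-09), which was under the fold threshold. Gad2 stood at 152, 148 and 160.4 CPM against 150 to 174 CPM (median 158), with overlapping groups and a log2FC of 0.06 (95% interval -0.03 to 0.14, adjusted p = 0.2). The transcription factor Lhx6 stood at 24.9, 24.6 and 20.3 CPM against 39.6 to 42.1 CPM (median 41.03), a log2FC of 0.81 (SE 0.05, adjusted p = 5.37e-12), also under the fold threshold although every co-culture library was above every mouse.

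Ratios within a library are free of the scaling between libraries. Of 10 ratios computed from the levels per kilobase, 9 did not overlap between the systems (exact permutation test p = 0.00606, 0.00673 adjusted over the 10 ratios). This p is the smallest that 8 against 3 libraries allow. Each ratio holds Gad1 or Sst, so the 10 are not independent. A share over ratios of other genes was not computed, and single levels did not overlap for 76.5% of all genes. Sst per Gad1 was 8.27 ± 0.449 (SD, n = 3) in the PFC and 1.27 ± 0.0756 (SD, n = 8) in the co-cultures, and Sst per Lhx6 was 66.5 ± 5.56 against 7.12 ± 0.438. Gad2 per Gad1 was 0.675 ± 0.0257 against 0.571 ± 0.0167. Npy per Sst was the ratio that overlapped, with 0.496 ± 0.0385 in the PFC and 0.510 ± 0.0422 in the co-cultures (exact permutation test p = 0.606).

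Genes that work beside the 10 were read from lists of the same scope. Of 18 interneuron transcription factors, 12 were higher in the co-culture and 2 lower, with a median log2FC of 1.58. The largest increases were in Nkx2-1, which specifies the medial ganglionic eminence (log2FC 4.24, SE 0.29), and in Sp8 (3.44, SE 0.08) and Sp9 (2.79, SE 0.07), which act in the caudal and lateral eminences, while Npas1 (-1.88, SE 0.06) and Satb1 (-1.23, SE 0.04) were lower. All 5 proliferation markers were higher as well, with a median log2FC of 3.06. Scaled within each system, the transcription factor list summed to 800 to 843 CPM in the microglia cultures. It summed to 561 to 606 CPM in all co-cultures and to 344 to 372 CPM in the PFC. The proliferation markers summed to 909 to 989 CPM in the microglia cultures and to 113 to 133 CPM in all co-cultures. The part of non-neuronal RNA in both lists was not tested. Of 25 other interneuron subtype genes, 10 were lower, led by Lamp5 (-5.00, SE 0.05), Sncg and Crh, and 6 were higher, led by Calb2 (3.60, SE 0.05), Chodl and Grik1.

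Of 14 other neuropeptide precursors tested, 7 were lower, led by Crh (log2FC -4.64), Cartpt (-3.55) and Cort (-3.38), and the growth factor Igf1 (1.78) was higher. Scaled within each system, this list summed to 1113 to 1195 CPM in the microglia cultures and to 113 to 124 CPM in all co-cultures. The part of microglial RNA in these values was not tested. Of 14 genes of peptide processing and dense-core vesicles, 7 were lower, led by Vgf (-3.07), the convertase Pcsk1 (-2.52) and the granin Chgb (-2.13), and Dner, a Notch ligand, was higher (2.67). Of 15 peptide and reelin receptors tested, 6 were lower, led by Cckbr (-4.24), Vipr1 (-3.67) and Sstr3 (-3.29), and 6 were higher, led by the tachykinin receptor Tacr3 (3.58), Vipr2 (1.78) and Tacr1 (1.36). The other 3 higher ones, named after their values were seen, were the reelin receptors Lrp8 (1.09) and Vldlr (1.01) and their adaptor Dab1 (1.04). Several genes stand on more than 1 list, among them Crh, Cort, Tacr1 and Calb2.

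Of 9 genes of GABA handling tested, 2 were lower and 1 was higher, shares near those over all genes. The lower ones were the transporter Slc6a13 (log2FC -6.01), which is mainly made by cells of vessels and meninges, and the glutamine synthetase Glul (-1.38), and the higher one was the glial GABA transporter Slc6a11 (1.32). Other cell types differed too. All 7 endothelial and mural markers and all 5 blood cell markers were lower, as were 7 of 11 oligodendrocyte markers (2 were higher), 4 of 10 astrocyte markers and 11 of 15 microglia markers. The general neuron markers, by contrast, had a summed level of 8073 to 8340.1 CPM in the sc-control co-cultures against 8705 to 9370.1 CPM in the sc-control PFC, with 5 of 10 lower, led by Snap25 (log2FC -2.69), Nefm (-2.56) and Nefl (-1.96), and 3 higher, Tubb3 (2.27), Stmn2 (2.13) and Map2 (1.11). Of 14 excitatory neuron markers, 6 were lower, led by Nrgn (-3.74), Slc17a7 (-3.31) and Fezf2 (-3.26), and Slc17a6 was higher (2.44). The part of these differences in the levels of the 10 genes was not tested.

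**Figure D3:**
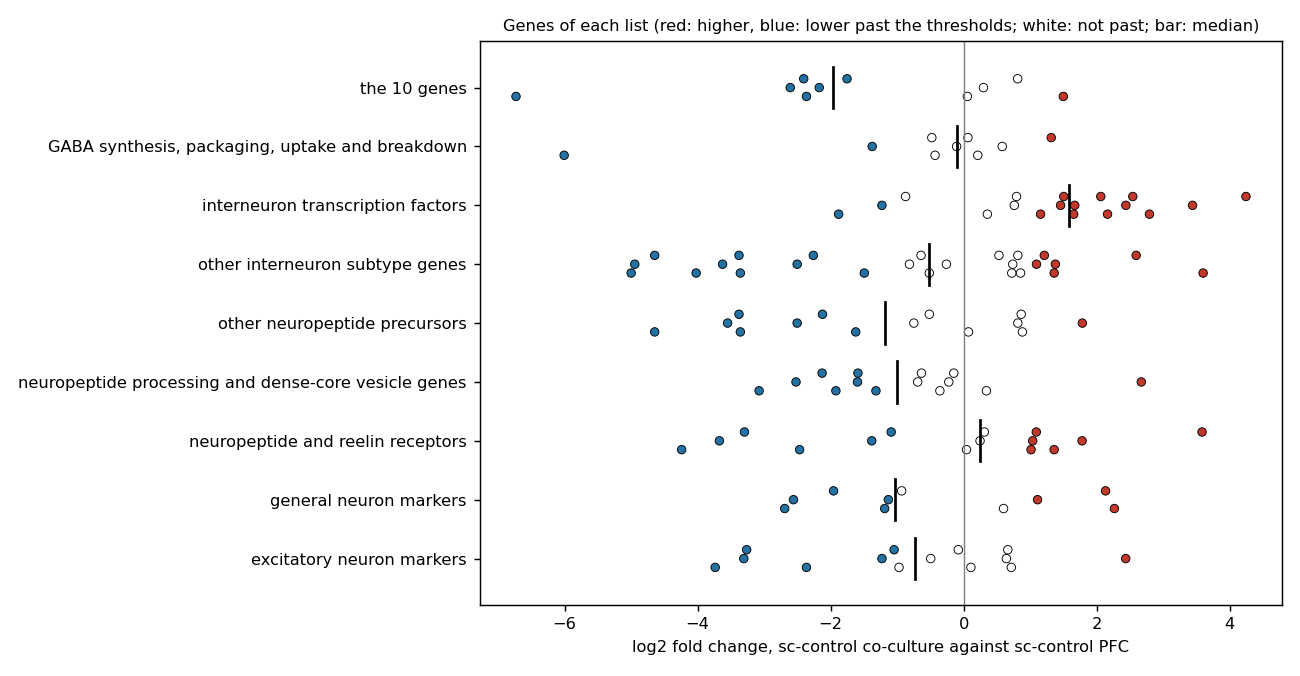
Log2FC of single genes, sc-control co-culture against sc-control PFC, for the 10 genes and 8 lists, where each point is a gene, red points were higher and blue points lower past the thresholds, white points were not past them, and bars are list medians. The interneuron transcription factors lie mostly to the right (median 1.58) and the peptide precursors and vesicle genes mostly to the left.

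The third question was whether inhibiting miR-99b-5p in the PFC altered these genes, where edgeR's thresholds were a log2FC past 0.2 with an adjusted p below 0.1. None of the 10 genes was called, against 0.0864% of 17364 genes tested, none had an unadjusted p-value under 0.05, as 7.64% of all genes had, and none was called by DESeq2. The median log2FC of the 10 genes was 0.02 and that of all genes was 0.00. The groups did not overlap for 1 of the 10 genes, Gad1, and for 13.3% of all genes.

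Gad1 stood at 251, 276 and 286 CPM in mice given the inhibitor, against 298, 294 and 299 CPM in those given the control. Every treated mouse was below every control mouse, and the control mice were close together. The log2FC was -0.13 (95% interval -0.28 to 0.02, adjusted p = 0.66), and the exact permutation p of 0.1 was the smallest that 3 against 3 mice allow. Gad2 was 119, 133 and 163 CPM against 152, 149 and 162 CPM, so that the groups overlapped, with a log2FC of -0.15 (95% interval -0.39 to 0.08, adjusted p = 0.708). Both enzymes were lowest in anti-miR-99b replicate 1, and without that mouse the log2FC was -0.08 for Gad1 and -0.05 for Gad2. Without replicate 3 it was -0.17 for Gad1 and -0.29 for Gad2.

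Among the peptides, Sst was 312, 258 and 218 CPM in the treated mice and 229, 243 and 223 CPM in the controls, with a log2FC of 0.18 (95% interval -0.07 to 0.44, adjusted p = 0.69). Npy was 120.3, 96.3 and 85.6 CPM against 97.1, 91.5 and 82.2 CPM, with a log2FC of 0.16 (95% interval -0.10 to 0.42). Cck was 422, 403 and 328 CPM against 382, 342 and 333 CPM, with a log2FC of 0.13 (95% interval -0.09 to 0.35). In all 3 genes anti-miR-99b replicate 1 was the highest mouse and replicate 3 lay among or below the controls, so the groups overlapped. Without replicate 1 the log2FC was 0.04 for Sst, 0.01 for Npy and 0.06 for Cck, and without replicate 3 it was 0.30, 0.26 and 0.23. Npy was also lower, at 0.09, without sc-control replicate 4.

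Vip (54.7, 51.5 and 48.2 CPM in treated mice against 52.8, 47.9 and 50.2 CPM) and Tac1 (16.3, 17.2 and 18.3 CPM against 21.8, 18.1 and 15.5 CPM) overlapped with log2FC of 0.03 and -0.10. Pvalb was 45.5, 52.5 and 42.9 CPM against 50.6, 44.4 and 44.4 CPM, a log2FC of 0.02 whose 95% interval of -0.19 to 0.22 spans -12.2% to 16.4%. Reln (67.5, 60.1 and 65.0 CPM against 65.4, 71.5 and 66.7 CPM) had a log2FC of -0.08, and Lhx6 (25.6, 24.98 and 21.1 CPM against 24.8, 24.7 and 20.5 CPM) one of 0.03. Without anti-miR-99b replicate 1, the log2FC of these 5 genes lay between -0.11 for Reln and 0.04 for Pvalb. None of them separated the groups, and with 3 mice per group changes within their 95% intervals remain compatible with these values. Of the 2 sequencing lanes, lane 6 held 2 mice per group and lane 7 held 1 per group. In lanes 6 and 7, 4 of the 10 genes had the same direction: Gad1 (-0.17 and -0.06), Npy (0.19 and 0.06), Reln (-0.10 and -0.04) and Lhx6 (0.03 and 0.04). The share over all genes was not computed, so this count does not show a steady effect.

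None of the genes on the 16 lists passed the thresholds in the PFC in edgeR either, although 8 of 15 microglia markers had an unadjusted p-value under 0.05, against 7.64% of all genes. The median log2FC was -0.05 for 9 genes of GABA handling, -0.04 for 25 other interneuron subtype genes, -0.03 for 15 interneuron transcription factors tested and -0.05 for 14 other peptide precursors tested. Striatal and microglia markers differed by point estimate without being called, and their sums overlapped between the groups. The lowest striatal sum of all mice was that of sc-control replicate 4 (201.2 CPM). Its microglia sum (1029 CPM) was above that of anti-miR-99b replicate 3 (995 CPM). All 10 striatal markers were lower in the treated mice by point estimate (median log2FC -0.49), with sums of 217 to 318 CPM against 201.2 to 430.6 CPM, and 14 of 15 microglia markers were higher by point estimate (median 0.36), with sums of 995 to 1098 CPM against 728 to 1029 CPM. Their part in the values of the 10 genes was not tested.

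The fourth question was whether the 10 genes differed in neurons that had been joined by treated microglia, where the thresholds were a log2FC past 0.1 with an adjusted p below 0.05. None of the 10 genes was called in edgeR, against 1.40% of 16193 genes tested, and none in DESeq2, while 1 of the 10, Reln, had an unadjusted p-value under 0.05, as had 13.2% of all genes. For none of the 10 did the groups separate, as they did for 0.580% of all genes. The median log2FC was 0.01 for the 10 genes and 0.00 for all genes.

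Reln ranged from 174 to 192 CPM (median 183) in the 7 anti-miR-99b libraries and from 185 to 202 CPM (median 188) in the 8 sc-control libraries. The groups overlapped, with 4 of 7 treated libraries below all controls. The log2FC was -0.06 (95% interval -0.12 to -0.01, p = 0.021 and adjusted p = 0.266 by edgeR), and the exact permutation test gave p = 0.0325. Treated libraries were lower on average in 3 of the 4 sequencing lanes (-0.12 to 0.00 on the log2 scale). Lanes 5 and 6 held only 1 treated library each, so directions by lane, here and below, rest on few libraries.

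Lhx6 ranged from 36.3 to 40.2 CPM (median 39.8) against 39.7 to 42.2 CPM (median 41.2). Here 2 of 7 treated libraries were below all controls. The log2FC was -0.05 (95% interval -0.11 to 0.00, adjusted p = 0.388), and the exact permutation test gave p = 0.00559. The lowest value was that of anti-miR-99b replicate 7, without which the log2FC was -0.04 (adjusted p = 0.569), and the treated libraries were lower in 4 of 4 lanes (-0.19 to -0.01). The -0.19 was that of lane 6, where replicate 7 stood against 1 control. The differences of Reln and Lhx6 between the groups were both under 0.1 on the log2 scale and neither passed the correction over all genes.

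Gad1 ranged from 346 to 389 CPM (median 365) in treated and from 353 to 382 CPM (median 364) in control libraries, with a log2FC of 0.00 and a 95% interval from -3.13% to 3.52%. Gad2 ranged from 145 to 169 CPM (median 155) against 150 to 174 CPM (median 159), with a log2FC of -0.04 (95% interval -0.10 to 0.03). The groups overlapped for both enzymes, and the interval of Gad1 was the narrowest of the 10 genes.

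Sst ranged from 42.4 to 50.8 CPM (median 47.0) against 41.4 to 47.0 CPM (median 42.9), with 3 of 7 treated libraries above all controls and a log2FC of 0.07 (95% interval -0.01 to 0.15, adjusted p = 0.462). Npy ranged from 17.1 to 20.8 CPM against 15.6 to 19.3 CPM, with a log2FC of 0.07 (adjusted p = 0.571). Tac1 ranged from 2.75 to 3.89 CPM against 2.44 to 3.31 CPM, with a log2FC of 0.14 (adjusted p = 0.538), and was higher in 4 of 4 lanes. All 3 overlapped between the groups, and the direction of Sst was split 2 to 2 over the lanes.

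Vip (9.90 to 12.2 CPM against 9.20 to 12.4 CPM, log2FC -0.02) and Cck (86.7 to 117 CPM against 98.7 to 109.7 CPM, log2FC 0.01) had nearly equal means in both groups, although the log2FC of Cck was 0.05 without anti-miR-99b replicate 7. Without that library, the log2FC of the 10 genes lay between -0.06 for Reln and 0.44 for Pvalb. Pvalb ranged from 0.298 to 0.806 CPM against 0.289 to 0.587 CPM. Its log2FC of 0.35 had a 95% interval of -0.08 to 0.78, or -5.72% to 71.1%, and rested on 7 to 25 reads per library.

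In the same co-cultures, 9 of 15 microglia markers were higher past the thresholds, against 0.846% of all genes, led by the surface receptor Trem2 (log2FC 0.70), the lysosomal Cd68 (0.43) and the fractalkine receptor Cx3cr1 (0.39). Their summed level was 245 to 283 CPM in treated and 204 to 254 CPM in control libraries. No gene of the other 15 lists passed the thresholds in edgeR, with no blood cell marker tested and 3 of 18 interneuron transcription factors, 3 of 23 other subtype genes and 4 of 14 excitatory neuron markers at an unadjusted p-value under 0.05, against 13.2% of all genes. These lists held also 8 genes of GABA handling and 15 receptors that were tested. The part of microglial RNA in the values of the 10 genes was not tested. For 5 of them (Sst, Vip, Tac1, Cck and Lhx6) primary microglia held 0 to 17 reads in 8 libraries together, while Reln, Gad1, Npy, Gad2 and Pvalb were counted in every microglia library.

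**Figure D4:**
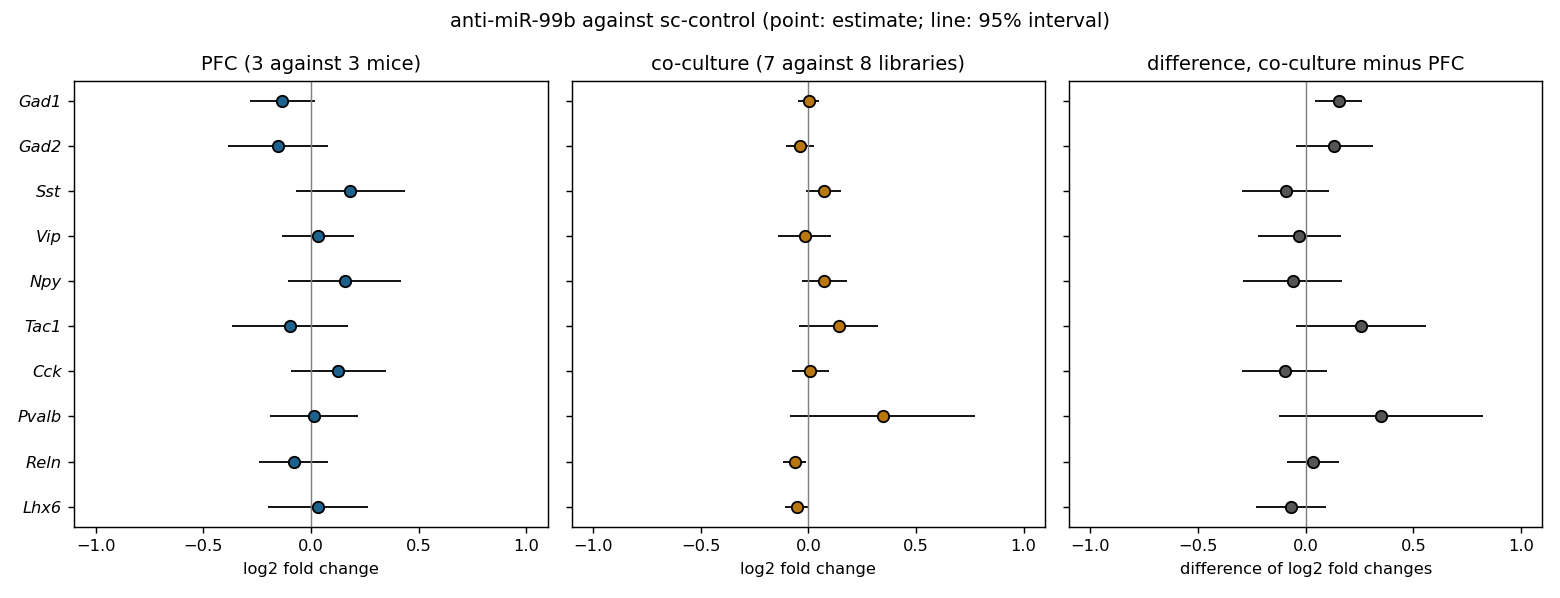
Log2FC of the 10 genes, anti-miR-99b against sc-control, in the PFC and in the co-cultures, and the difference between both, with 95% intervals from edgeR's quasi-likelihood fit. In the co-cultures the intervals are narrow for Gad1, Gad2, Reln and Lhx6 and wide for Pvalb, and in the difference Gad1 alone has an interval clear of 0.

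The treatment effects in the 2 systems were compared by their interaction across all 21 libraries, with an adjusted p-value under 0.05 as the threshold. None of the 10 genes was called, against 0.448% of 18321 genes tested, and 1 of the 10, Gad1, had an unadjusted p-value under 0.05, as had 15.4% of all genes. For Gad1 the co-culture effect exceeded the PFC effect by 0.15 (95% interval 0.04 to 0.26, adjusted p = 0.176 by edgeR). The differences of the other 9 genes lay between -0.10 for Cck and 0.35 for Pvalb, each with an interval that included 0. DESeq2 called none of the 10 either.

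Lastly, the 15 co-culture libraries allowed a look at which of the genes varied together, after the mean of each treatment group was removed. Of 36 pairs of the 9 genes with a mean of at least 1 CPM, 15 had a positive Pearson's r and 1 passed the correction over the 36 pairs. That pair was Gad1 and Gad2, with r = 0.91 (permutation p = 1e-05, the smallest that 100000 permutations can give, adjusted p = 0.00036) and Spearman's rho = 0.85 (permutation p = 0.00014, adjusted p = 0.00504). Without the 2 libraries farthest from the median of Gad1, r was 0.86, and without anti-miR-99b replicate 7 it was 0.89. The lanes held too few libraries for a value within each. Gad2 was not among the 10 genes closest to Gad1, which had r of 0.93 to 0.95 with it. In the co-cultures, the first principal component of such deviations held 23.8% of the variance. It was highest in replicate 7 of the inhibitor group (14.3), then in replicate 6 of the controls (9.59). Each had the highest Gad1 and Gad2 of its group. The part of this component in the r of Gad1 and Gad2 was not tested, so a link specific to this pair was not shown.

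The 2 pairs next in size rested on few libraries. Cck and Lhx6 had r = 0.71 (permutation p = 0.0127, adjusted p = 0.138) and rho = 0.40 (permutation p = 0.143, adjusted p = 0.397), and r was 0.10 without the 2 libraries farthest from the median of Cck and 0.25 without anti-miR-99b replicate 7. Gad1 and Cck had r = -0.70 (permutation p = 0.0051, adjusted p = 0.0918) and rho = -0.51 (permutation p = 0.0555, adjusted p = 0.258), and r was -0.46 without the 2 libraries farthest from the median of Gad1. Anti-miR-99b replicate 7 had the highest Gad1 (389 CPM) and the lowest Cck (86.7 CPM) and Lhx6 (36.3 CPM) of its group.

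**Figure D5:**
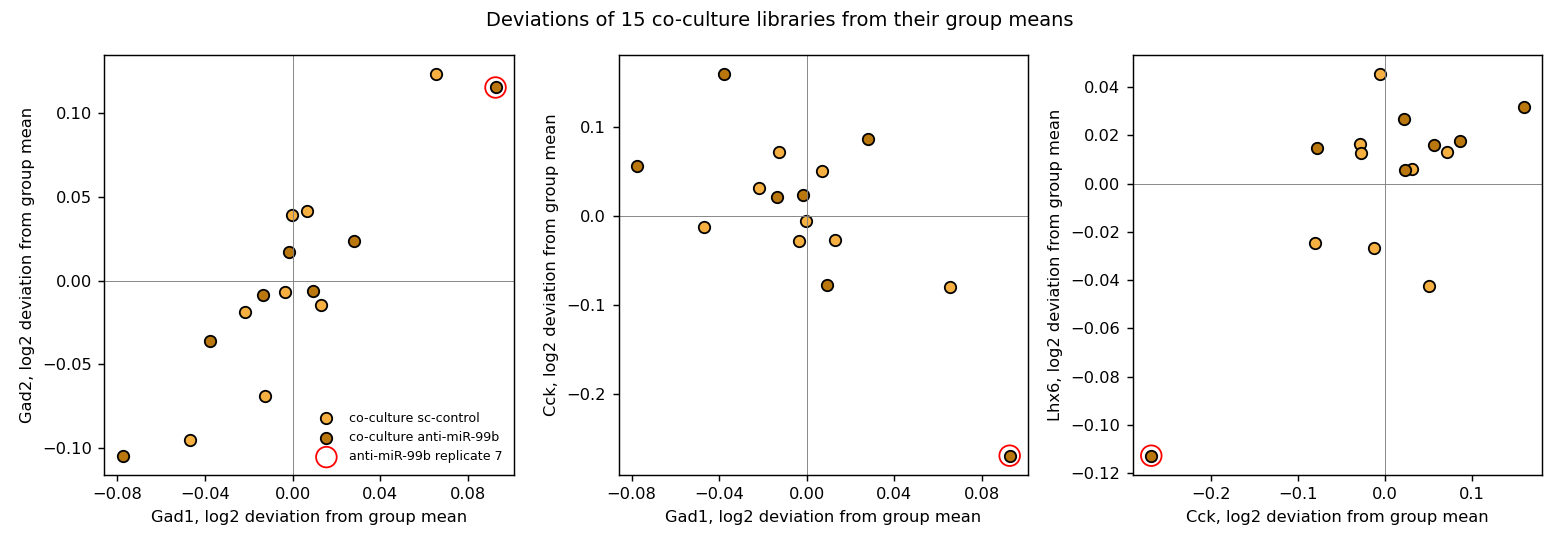
Deviations of 3 pairs of genes from their group means, on the log2 scale, in the 15 co-culture libraries, with anti-miR-99b replicate 7 ringed in red. Gad1 and Gad2 rise together over all libraries, whereas the slopes of Gad1 with Cck and of Cck with Lhx6 lean on the ringed library.

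The genes closest to each in this measure, over 15 libraries, are given as a description. Gad2 was most like Hapln1 (Pearson's r = 0.97), Ttll7 (0.93) and Btbd1 (0.93), and Gad1 most like Zfp91, Smim13 and Gucy1b1 (0.95 each). Cck was most like the convertase inhibitor Pcsk1n (0.96), Scand1 (0.95) and Cnih2 (0.95). Lhx6 was most like Yipf2 (0.92), Calcoco1 (0.88) and Psmb2 (0.88), and Reln most like Sv2c (0.86), an identifier without a symbol (0.82) and Usf3 (0.81). Sst was most like Nxph4 (0.81), Dgkg (0.81) and Stard13 (0.80), Vip like Scp2 (0.89), Cmya5 (0.80) and B3glct (0.78), Npy like Gm45619 (0.85), Gm5436 (0.84) and Nono (0.84), and Tac1 like 4921524J17Rik (0.88), Wdhd1 (0.86) and Zfp810 (0.84). These libraries share culture, preparation and depth, and such values carry no test.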

How the data were processed

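RNA was measured by RNA-seq in 29 libraries. Per the labels and the study's methods, the authors made poly(A) libraries, sequenced single reads of 50 bases, and deposited raw counts of reads per gene. The submitters' processing notes name bcl2fastq 2.20.2, FastQC 0.11.5, STAR 2.5.2b, featureCounts 1.5.1 and the build mm10, while annotation release and strand setting are not given in the sources used here. Groups came from the labels, lanes and replicate numbers from the library names in them. The 10 genes and the 16 lists beside them were chosen with earlier results of these data known. Symbols, coordinates and exon lengths came from GENCODE M21 (GRCm38), which named 48349 of 48709 identifiers.

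Counts were filtered with filterByExpr, scaled by TMM and tested with edgeR 4.0.16 (quasi-likelihood, R 4.3.3), with Benjamini-Hochberg adjustment over all genes tested. The SE was the log2FC divided by the square root of F. The thresholds were those stated by the study for the PFC and the co-cultures. Single levels were tested by two-sided exact permutation. Alternatives were DESeq2 1.42.0, RLE and upper-quartile scaling, 2 other filters, blocks for lane and replicate number, 1 RUVs factor and leaving out each PFC mouse. The script was tested on simulated data. Named list genes are up to 3 per direction with the largest log2FC past the thresholds, and for each gene the 3 with the highest r. Depths of 21324156 to 37901110 reads limit Pvalb and Tac1 in culture. No pair of libraries of a group was within sampling noise.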

Additional observations from a re-analysis of the deposited data

Results flagged for a closer look

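A gap test for 1 sample far from the rest of its group was run on 44 groups of values in the culture libraries (the 10 genes in 4 groups, and the summed microglia markers and interneuron transcription factors in the co-culture groups), and 4 groups exceeded the 95% critical value, where chance gives about 1 in 20. Lhx6 in co-culture anti-miR-99b replicate 7 was 36.3 CPM, against 39.5 to 40.2 CPM in the other 6 libraries of its group. The other 3 were primary microglia libraries with 1 or 2 reads where the rest of the group had none: Sst at 0.0472 CPM in sc-control replicate 2, and Vip at 0.0704 CPM in anti-miR-99b replicate 5 and at 0.0585 CPM in sc-control replicate 6.

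Reads of 5 of the 10 genes were counted in all 8 primary microglia libraries, above the limit of 3 reads that a count of 0 allows. The lowest counts per library were 155 for Gad1, 34 for Gad2, 93 for Npy, 8 for Pvalb and 672 for Reln. In the same libraries the general neuron markers summed to 137 to 152 CPM, against 8080 to 8378 CPM in the sc-control co-cultures when these are scaled without the PFC, and the microglia markers to 18890 to 20054 CPM.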

How the results depend on the processing

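The counts of the 10 genes called stayed at 0 in the PFC, in the co-cultures and in the difference of effects under every alternative run, and at 1 higher and 6 lower in the baseline comparison, with 5 lower where at least 10 counts in every library were required, because Pvalb was then not tested. The lowest adjusted p of any of the 10 genes was 0.172 in the PFC (Gad2) and 0.0627 in the co-cultures (Reln). Of their log2FC under alternatives, 327 kept direction and call and 21 changed sign, all of them small and not called, and the cause was not tested. In the PFC these were Pvalb without a filter on low counts (-0.0026), Lhx6 with 1 RUVs factor (-0.0081), and 4 genes when single mice were left out, with log2FC from -0.011 to 0.077 for Vip, -0.054 to 0.116 for Lhx6, -0.074 to 0.080 for Pvalb and -0.212 to 0.040 for Tac1. In the co-cultures they were Gad1 with 1 RUVs factor (-0.0028) and without anti-miR-99b replicate 7 (-0.012), and Vip with lane as a block (0.0045).

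No pairing by replicate number was seen: the mean correlation of same-numbered samples was -0.12 over 2 PFC pairs and 0.01 over 4 co-culture pairs. The 2 PFC values were -0.28 and 0.05, and so few pairs cannot exclude a pairing. With a block for replicate number, only samples whose number occurs in both groups bear on the log2FC, which are these 2 and 4 pairs. The other mice and co-culture libraries do not enter it. With the replicate block, log2FC turned to -0.010 for Vip, -0.050 for Npy and -0.103 for Lhx6 in the PFC and to -0.017 for Gad1 in the co-cultures, none called. Sst in the co-cultures went from 0.07 to 0.163 with the block (adjusted p = 0.0809 by edgeR, not called) and Tac1 from 0.14 to 0.031, and in the PFC Sst and Cck were 0.014 and 0.013. With the PFC replicate block crossed (chosen after seeing the data), 0 of the 10 genes and 551 higher and 87 lower genes of all were called, with -0.012 for Vip, -0.051 for Npy and -0.106 for Lhx6.

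Counts over all genes depended more on the processing. In the PFC, 15 higher and 0 lower became 85 and 8 with DESeq2, 297 and 115 without a filter, 475 and 43 with the replicate block, 73 and 4 with lane as a block, 208 and 107 with 1 RUVs factor, 25 and 0 with upper-quartile scaling, and 1 to 195 and 0 to 6 without single mice (195 without sc-control replicate 4, 1 without anti-miR-99b replicate 2 or sc-control replicate 2). In the co-cultures, 137 higher and 90 lower became 70 and 23 with the replicate block, 85 and 36 with lane as a block and 281 and 234 with 1 RUVs factor. In the baseline comparison, 3607 lower became 5580 without a filter and 2365 with at least 10 counts. For the difference of effects, 82 became 201 with DESeq2. The counts with the replicate block rest on the 2 PFC pairs and 4 co-culture pairs of same-numbered samples. The Pvalb and Tac1 values in culture are limited by depth.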
